A study of Mus musculus with 66 samples.

Results

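Heat shock proteins are molecular chaperones, and the genes described here are 10 members of the stress-inducible and constitutive chaperone machinery: Hspa1a, Hspa1b, Hspb1, Hspa8, Hsp90aa1, Hsp90ab1, Dnajb1, Hsph1, Chordc1 and Hspe1. They were chosen by symbol, with every probe set annotated to a listed symbol. The array annotation paired 22 of 45037 probe sets with 9 of the 10 symbols. Hsp90ab1 was not analysed here. Of the 22 probe sets, 20 lay above a filter on dim signals, and each of the 9 genes had at least 1 of them.

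RNA came from medial prefrontal cortex of male mice of 10 to 12 weeks and was hybridised to Affymetrix mouse arrays, 66 in all, each a pool of 4 to 5 animals. Every mouse received an intraperitoneal injection of saline or of ethanol at 1.8 g/kg. All of them, the saline mice too, were then held in a tube for 15 min, spent 10 min in a light-dark box and were killed 4 h after the injection, so that no group was free of handling stress. The inbred progenitor strains C57BL6/J and DBA/2J had 3 saline and 3 ethanol arrays each. The BXD lines, recombinant inbred strains derived from a cross of those progenitors, contributed 27 strains, each measured once after saline and once after ethanol. The study asks how acute ethanol changes expression in this region across genotypes. Values are deposited log2 RMA expression, in which a difference of 1 is a doubling. Because each array is a pool, p-values in the progenitors measure the spread between pools. In the BXD fit the spread is that of the ethanol difference over strains, which includes the spread between pools. The number of arrays limits the precision. In whole tissue, fewer cells of a type and less RNA per cell cannot be told apart.

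In a stressed cell unfolded proteins draw chaperones away from heat shock factor 1, which then binds heat shock elements, repeats of a short GAA-containing unit in alternating orientation, and switches on inducible chaperone genes. Hspa1a and Hspa1b encode inducible Hsp70 and are textbook targets of this response, whereas Hspa8 encodes the constitutive Hsc70, which is abundant in neurons and uncoats clathrin-coated vesicles. Dnajb1 is an Hsp40 co-chaperone that delivers clients to Hsp70, Hsph1 is an Hsp110 nucleotide exchange factor, Hsp90aa1 is the inducible cytosolic Hsp90, Chordc1 is an Hsp90 co-chaperone, and Hspb1 is a small heat shock protein that holds unfolded clients. Hspe1 is the small subunit of the mitochondrial chaperonin and so does not match the word cytosolic by location. It was kept because its symbol is on the list.

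The start-site regions below are shown because they carry the letters of a heat shock element in genes whose RNA levels are then described. Promoter windows, 250 bases before to 50 bases after the start site, were found for 7 of the 10 genes in the RefSeq table (GRCm38.p6). Capitals mark matches to GAANNTTC or TTCNNGAA, the 2 ways in which neighbouring units can face each other. Both motifs read the same on either strand, and overlapping matches are written as 1 run. Each stretch is given 5′ to 3′ on the gene's strand.
Hspa1b, chr17:34959315-34959362, minus strand: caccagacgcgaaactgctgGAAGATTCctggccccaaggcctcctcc
Hspa1a, chr17:34972233-34972280, minus strand: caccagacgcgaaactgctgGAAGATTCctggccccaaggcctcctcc
Hspb1, chr5:135887782-135887849, plus strand: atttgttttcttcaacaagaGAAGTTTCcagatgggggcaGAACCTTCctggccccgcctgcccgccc
Hsph1, chr5:149636287-149636316, minus strand: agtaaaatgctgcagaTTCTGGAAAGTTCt
Chordc1, chr9:18292243-18292296, plus strand: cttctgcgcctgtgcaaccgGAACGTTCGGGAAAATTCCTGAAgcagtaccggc
Hspe1, chr1:55088039-55088096, plus strand: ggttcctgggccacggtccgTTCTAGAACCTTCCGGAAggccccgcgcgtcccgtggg

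Matches lay in the windows of 6 of the 7 genes, and both start-site windows of Dnajb1 held none. Of all 32851 promoter windows in the table, 15.1% hold either motif, 7.86% hold GAANNTTC and 8.52% hold TTCNNGAA. The Chordc1, Hsph1 and Hspe1 runs join 3 or more units in a row. A form of 3 units, GAANNTTC with a further GAA after 2 more bases, or its reverse complement, is found in 0.603% of windows. A match is a string of letters and not a measured binding site. The Hspa1a and Hspa1b windows are identical at 296 of 300 bases (98.7%), and the shown stretches are the same. These genes are near-identical copies, so their probe sets may not tell them apart, and the values below are uncertain as to which copy they measure.

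Array medians were 5.67 to 5.77, which RMA makes alike by construction, and correlations between arrays were 0.983 to 0.997 over all probe sets. The labelled tissue was checked with marker lists. The mean of 4 neuronal markers lay between 11.74 and 11.99 on every array. That of 3 measured cortical excitatory markers was 9.14 to 9.96, and that of 4 measured striatal markers 6.59 to 7.26. In a test of each gene on its brightest probe set, 13196 genes were tested. Probe sets of 1 gene tracked each other over the 54 BXD arrays to unequal degrees. Pearson r was 0.90 to 0.97 among the Hspa1b probe sets and 0.92 for Hspb1. It was 0.75 for Dnajb1, 0.74 for Hsph1 and 0.61 for Hspe1. Hspa8 has 4 probe sets, and the dimmest of them, called the dim Hspa8 probe set below, gave r of 0.20, 0.33 and 0.37 with the others. Levels are compared below only within a probe set.

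One Hspa8 probe set rose after ethanol in every BXD strain, while the other 3 probe sets of the gene did not. The dim Hspa8 probe set had a saline minimum of 5.02 in BXD19, a median of 5.62 and a maximum of 6.35 in BXD34. After ethanol the minimum was 5.83 in BXD28, the median 6.33 and the maximum 7.44 in BXD15. The groups overlap across strains, yet each strain's ethanol array lies above its own saline array. The mean difference was 0.70 on the log2 scale (SE 0.06, 95% interval 0.58 to 0.83, n = 27 strain pairs), a 1.63-fold rise (1.49 to 1.78) in 27 of 27 strains. In a limma fit over all 45037 probe sets its adjusted p was 3.37e-08. It was 1 of 22 member probe sets past the threshold, against 0.00444% of all probe sets called higher (2 of 45037). The other belongs to Npas4, an activity-induced transcription factor, at 0.84 (SE 0.08). At an unadjusted p below 0.05 there were 3 of 22 member probe sets, against 3.99% of all.

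The measured difference of the dim Hspa8 probe set ranged widely over strains. With 1 array per strain and treatment, variation between strains cannot be told apart from variation between arrays. The difference of the dim probe set was smallest in BXD27, at 0.07, where saline was 6.27 and ethanol 6.34. It was largest in BXD15, at 1.40, where saline was 6.04 and ethanol 7.44, with a median over strains of 0.67. The other Hspa8 probe sets, from brightest to dimmest, differed by -0.02, 0.03 and 0.0031. The difference of the dim one exceeded the mean difference of those 3 by 0.70 (SD 0.34) and did so in 27 of 27 strains. It was singled out for this contrast, so the comparison within the gene is a description with no test. The annotation credits the dim probe set to Hspa8, and which transcript it measures was not tested.

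**Figure D1:**
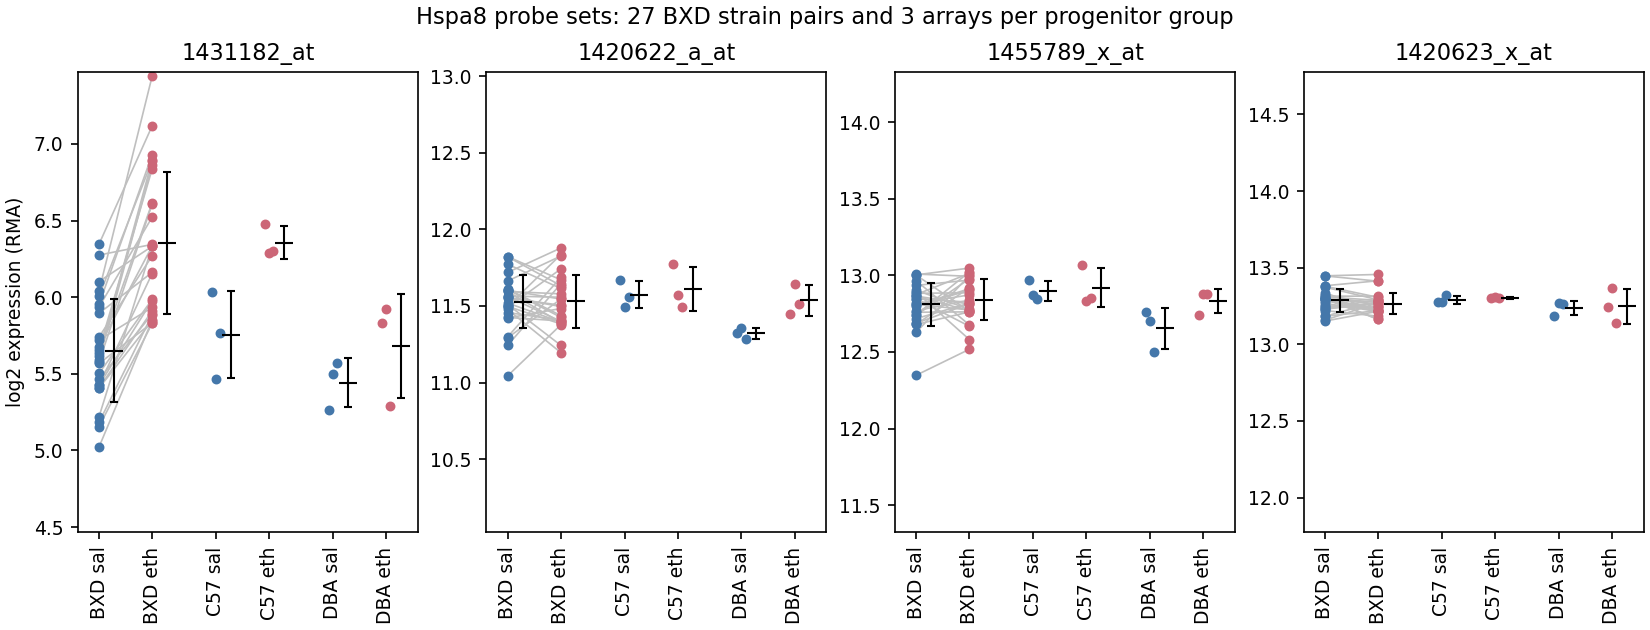
Log2 RMA expression (y axis) of each of the 4 Hspa8 probe sets by group (x axis), with a line joining the saline and ethanol array of each of the 27 BXD strains and points for the 3 arrays of each progenitor group. Titles give the probe set identifiers. The lines of the dim probe set, at the left, all rise, by 0.07 to 1.40, and those of the other 3 go in both directions.

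Among the progenitors the same Hspa8 probe set did not pass the test over all probe sets. In C57BL6/J the dim Hspa8 probe set read 6.04, 5.47 and 5.77 under saline and 6.48, 6.29 and 6.30 under ethanol, without overlap. The limma difference was 0.60 (SE 0.16, interval 0.26 to 0.93, unadjusted p = 0.0016, adjusted p = 0.97). In DBA/2J it read 5.26, 5.50 and 5.57 under saline and 5.83, 5.92 and 5.29 under ethanol, so that 1 ethanol array lay among the saline arrays. The limma difference there was 0.24 (SE 0.16, interval -0.10 to 0.57, adjusted p = 0.63). The difference between the strains' responses was -0.36 by limma's interaction term, with an adjusted p of 0.72. When 1 array was left out, that difference ran from -0.50 to -0.16 and the DBA/2J one from 0.12 to 0.43. In order, the group means were 5.44 in saline DBA/2J, 5.65 in saline BXD, 5.68 in ethanol DBA/2J, 5.76 in saline C57BL6/J, 6.35 in ethanol C57BL6/J and 6.36 in ethanol BXD. Neighbours among the 4 lower groups, and the upper pair, were closer than the larger of their SDs.

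At the gene level no member passed the BXD ethanol test, and the member nearest to the threshold was Hspb1. Hspb1 had a saline minimum of 8.52, a median of 8.89 and a maximum of 9.69 in BXD31. After ethanol the minimum was 8.25 in BXD18, the median 8.71 and the maximum 9.31 in BXD01. The groups overlap broadly. The widest drop was in BXD31, from 9.69 to 8.71, and the widest gain in BXD15, from 8.91 to 9.30. The 95% interval of the mean difference was -0.31 to -0.09, with an unadjusted p of 7.9e-04 and an adjusted p of 0.41 by limma over 13196 genes. The second, dimmer Hspb1 probe set differed by -0.18 (SE 0.05) and was lower in 21 of 27 strains, with an adjusted p of 0.70 by limma. No mean level of 10 cell type marker lists tracked the Hspb1 strain difference past an adjusted p of 0.05 over the 10 lists. Some lists had mostly negative ethanol differences over BXD strains too. They were microglia in 5 of 6 markers (median -0.06), striatal neurons in 4 of 4 (-0.06), vascular smooth muscle in 2 of 2 (-0.06), meninges and fibroblasts in 6 of 7 (-0.04), endothelium and pericytes in 8 of 9 (-0.01), and the 1 measured blood marker (-0.04). The median over all genes was -0.01, like that of endothelium and pericytes. No marker of any list passed limma's threshold, against 0.00758% of all genes. Markers with an unadjusted p below 0.05 were 2 of microglia, 2 of endothelium and pericytes, 1 striatal and 1 of smooth muscle. Of all genes 4.93% had such a p. Neurons, cortical excitatory neurons, astrocytes and oligodendrocytes had medians of 0.0037 to 0.020. The part of these cells in the Hspb1 difference was not tested.

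The other members moved by less than 0.07 on average over the BXD strains, with intervals that bound any mean change. Among the inducible Hsp70 genes, Hspa1a differed by -0.01 (interval -0.11 to 0.10) and Hspa1b by -0.01 (-0.14 to 0.12). Among the Hsp70 partners, Dnajb1 differed by -0.02 (-0.10 to 0.07) and Hsph1 by -0.04 (-0.10 to 0.01). Chordc1 and Hsp90aa1 of the Hsp90 system differed by -0.05 (-0.12 to 0.02) and 0.03 (-0.03 to 0.09). The constitutive Hspa8, on its brightest probe set, differed by -0.02 (-0.06 to 0.02), and the chaperonin subunit Hspe1 by -0.06 (-0.12 to 0.01). In all, 0 of 9 genes passed limma's adjusted threshold, against 0.00758% of all genes, and 1 of 9 had an unadjusted p below 0.05, against 4.93%. The difference was negative in 8 of 9 members, with a median of -0.02 beside -0.01 over all genes.

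**Figure D2:**
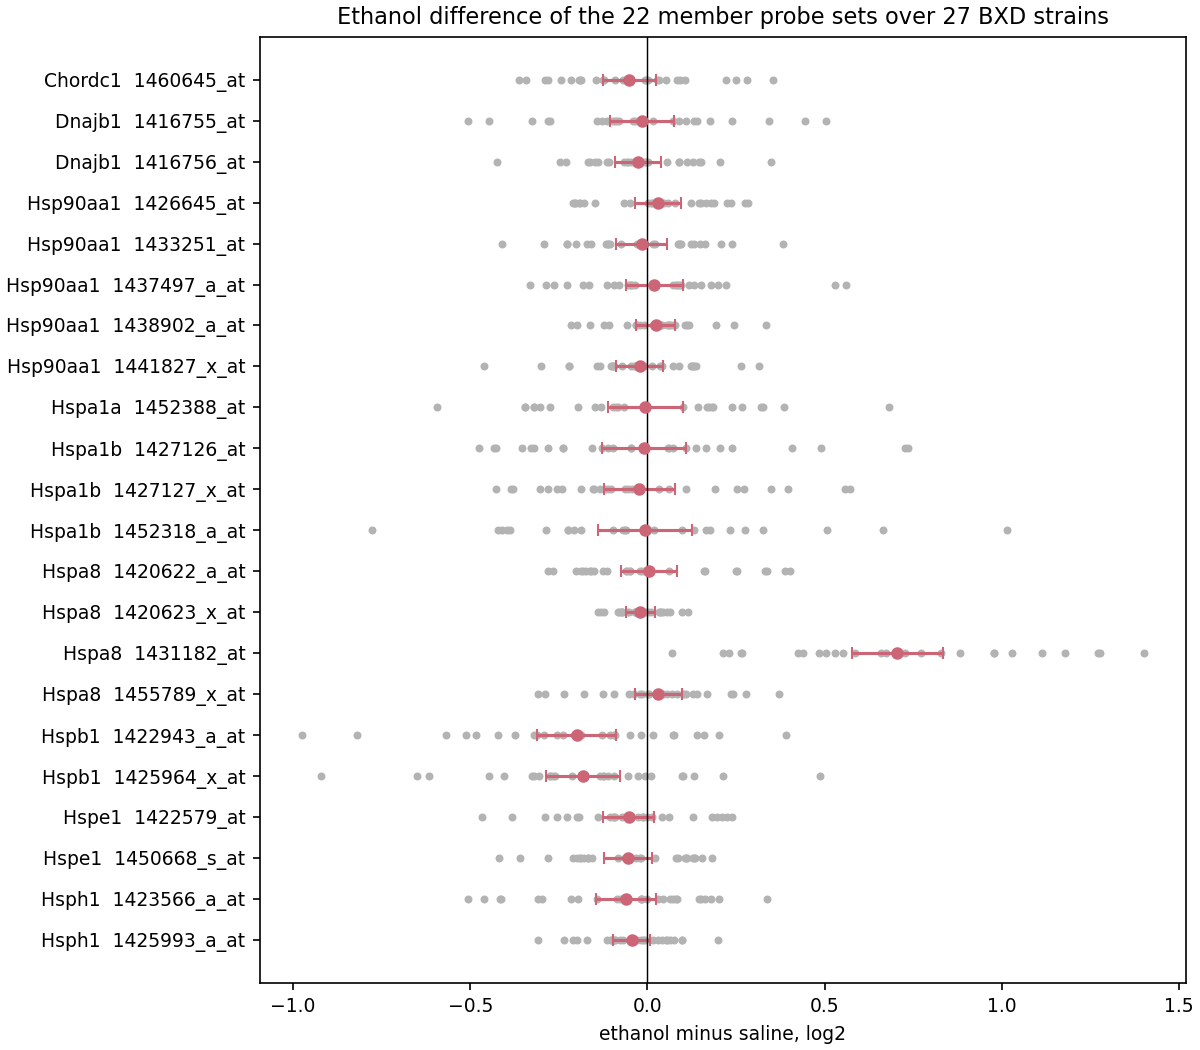
Ethanol minus saline difference in log2 (x axis) of the 22 member probe sets (y axis), 1 small point per BXD strain, with the mean and its 95% interval. The dim Hspa8 probe set, at 0.70, has all 27 strains above 0, and the Hspb1 probe sets, at -0.20 and -0.18, lie lowest.

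A mean near 0 for Hspa1a and Hspa1b held wide differences between strains. Hspa1b went from 8.08 under saline to 9.09 under ethanol in BXD20, a difference of 1.02, and from 9.73 to 8.95 in BXD01, a difference of -0.78. Hspa1a moved alongside in those strains, from 6.68 to 7.37 in BXD20 and from 7.99 to 7.39 in BXD01. The lowest Hspa1b level under ethanol was 7.85 in BXD22, which was also lowest under saline at 8.07. The strain differences of the other members spanned 0 as well. They ran from -0.51 in BXD01 to 0.50 in BXD15 for Dnajb1, from -0.36 in BXD16 to 0.35 in BXD20 for Chordc1 and from -0.42 in BXD18 to 0.18 in BXD32 for Hspe1. The range was -0.31 in BXD32 to 0.20 in BXD20 for Hsph1, -0.21 in BXD42 to 0.28 in BXD18 for Hsp90aa1, and -0.14 in BXD34 to 0.11 in BXD39 for the brightest Hspa8 probe set. Hspa8 was thus the narrowest of the 9 on that probe set. With 1 array per strain and treatment, a strain's own difference has no replicate check.

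In the progenitors the ethanol differences of the members likewise stayed below the threshold over all genes. In DBA/2J Hspa1b read 7.44, 7.85 and 7.82 under saline and 8.15, 8.28 and 8.15 under ethanol, without overlap. In C57BL6/J Hspa1b read 8.89, 8.61 and 8.86 under saline and 8.89, 8.50 and 8.99 under ethanol, fully overlapping. By limma the DBA/2J difference was 0.49 (SE 0.13, interval 0.21 to 0.77, a 1.41-fold ratio), with an unadjusted p of 0.0018 and an adjusted p of 0.19. The C57BL6/J difference was 0.01. The interaction, the DBA/2J response minus the C57BL6/J response, was 0.48 (SE 0.19, interval 0.09 to 0.88), with an adjusted p of 0.56 by limma, so the responses were not shown to differ. The further Hspa1b probe sets in DBA/2J gave 0.26 for the middle one by brightness and 0.35 for the dimmest.

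Hspa1a in DBA/2J read 6.47, 6.66 and 6.63 under saline and 6.60, 7.11 and 7.01 under ethanol. 1 ethanol array lay within the saline range, and the limma difference of 0.32 (SE 0.15) had an adjusted p of 0.39. Chordc1 in C57BL6/J read 9.09, 9.03 and 9.0 under saline and 8.91, 8.60 and 8.85 under ethanol, so that every ethanol array lay below every saline array. Its adjusted p by limma was 0.92 (unadjusted p = 0.0099). In DBA/2J Chordc1 overlapped, with 8.77, 8.79 and 8.71 under saline and 8.63, 8.76 and 8.66 under ethanol. Hspb1 in C57BL6/J also overlapped, with 8.83, 8.80 and 9.16 under saline and 8.58, 8.93 and 8.84 under ethanol. Its dimmer probe set differed by -0.34, with an adjusted p of 0.97 by limma. Hsph1 ran from 11.21 to 11.24 in the saline and from 10.96 to 11.19 in the ethanol C57BL6/J arrays, a narrow miss of overlap, and its limma difference of -0.14 had an interval of -0.32 to 0.04. On their brightest probe sets Hspa8, Hsp90aa1, Dnajb1 and Hspe1 differed by -0.08 to 0.05 in either progenitor. Other probe sets of these genes went further. In DBA/2J 1 probe set of Hsp90aa1 differed by 0.24 (limma unadjusted p = 0.023, adjusted p = 0.43), and in C57BL6/J another differed by -0.17 (adjusted p = 0.97). In DBA/2J 2 more Hspa8 probe sets differed by 0.22 (limma unadjusted p = 0.038, adjusted p = 0.47) and 0.18 (adjusted p = 0.55).

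By limma 0 of 9 genes passed in C57BL6/J, against 0.00758% of all genes, and 1 of 9 had an unadjusted p below 0.05, against 4.98%. In DBA/2J 0 of 9 passed, against 0%, and 2 of 9 had an unadjusted p below 0.05, against 12.5%. For the mean response of both strains 0 of 9 passed, against 0.0455%, and 2 of 9, Chordc1 at -0.16 and Hspa1b at 0.25, had an unadjusted p below 0.05, against 8.84%. For the interaction 0 of 9 passed, against 0%, and 1 of 9 had an unadjusted p below 0.05, against 8.31%. Of the 22 member probe sets 0 passed in C57BL6/J, against 0.00444%, with 3 at an unadjusted p below 0.05, against 4.7%. In DBA/2J 0 of 22 passed, against 0%, with 5 at an unadjusted p below 0.05, against 10.2%. The medians of the 9 members were -0.07 in C57BL6/J and -0.06 in DBA/2J, beside -0.02 and 0.00 over all genes.

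Among the tested comparisons, the inducible Hsp70 genes had their largest differences between the progenitor strains under saline. Under saline Hspa1b was lower in DBA/2J than in C57BL6/J by all 3 of its probe sets. The mean was 7.70 (SD 0.23, n = 3) in DBA/2J and 8.79 (SD 0.15, n = 3) in C57BL6/J. The difference of -1.08 (SE 0.13) is a ratio of 0.471 (0.389 to 0.572), with an adjusted p of 4.43e-05 by limma. The dimmest Hspa1b probe set read 6.51, 7.12 and 7.17 in DBA/2J against 8.07, 7.77 and 8.01 in C57BL6/J. The middle one of Hspa1b read 7.27, 7.52 and 7.71 against 8.57, 8.00 and 8.47. Neither overlaps, and the differences were -1.02 and -0.85. The 3 probe sets tracked each other over the BXD arrays (r of 0.90 to 0.97), so they are not independent measurements. Whether probes bind the sequences of both progenitors equally was not tested, here or for the other strain differences.

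Hspa1a was lower too, with 6.47, 6.66 and 6.63 in saline DBA/2J against 7.22, 7.17 and 7.44 in saline C57BL6/J. The difference was -0.69 (SE 0.15), a ratio of 0.621, with an adjusted p of 0.0064 by limma. Chordc1 differed by -0.28 (adjusted p = 0.0483) and Dnajb1 by -0.24 (adjusted p = 0.0495), both just inside limma's threshold of 0.05. The second Dnajb1 probe set differed by -0.11 (limma adjusted p = 0.52). Dnajb1 read 9.55, 9.65 and 9.59 in saline DBA/2J and 9.82, 9.89 and 9.80 in saline C57BL6/J. When any 1 of the 6 saline arrays was left out, Hspa1b and Hspa1a still passed and the count of members fell from 4 to 2. With all 9 members counted, 4 were lower at the adjusted threshold, against 6.27% of all genes. At the probe set level 4 of 22 were lower, the 3 of Hspa1b and that of Hspa1a, against 3.53% of all probe sets. The median of the 9 members was -0.12 beside 0.02 over all genes.

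Ethanol-treated arrays gave the same direction for Hspa1b. The means were 8.19 (SD 0.08, n = 3) in DBA/2J and 8.79 (SD 0.26, n = 3) in C57BL6/J, a difference of -0.60, a ratio of 0.660 and an adjusted p of 0.0089 by limma. Without replicate 3 of ethanol C57BL6/J the adjusted p of Hspa1b was 0.058. Hspa1a differed by -0.45 (adjusted p = 0.079) and Dnajb1 by -0.22 (adjusted p = 0.090), neither past the threshold. Of 9 members 1 was lower, against 2.89% of all genes. Of 22 member probe sets 4 were lower, against 2.21%. They were the 3 of Hspa1b, at -0.60, -0.71 and -0.59 from brightest to dimmest, and the dim one of Hspa8, at -0.67 (SE 0.16, adjusted p = 0.019 by limma). Without replicate 1 of ethanol C57BL6/J 0 of the 22 passed by limma, and 1 passed without its replicate 3 or without replicate 1 or 3 of ethanol DBA/2J. The dimmest Hspa1b probe set lost its call without any 1 of the 6 ethanol arrays, with an adjusted p of 0.053 to 0.214. The brightest lost it in 4 of the 6 cases, the dim Hspa8 one in 3 and the middle Hspa1b one in 2.

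Markers of other cells differed between the saline progenitor groups as well. The mean of 5 measured oligodendrocyte markers was 8.65 to 9.02 in DBA/2J and 9.50 to 9.58 in C57BL6/J, and that of 6 microglial markers was 8.19 to 8.43 against 8.43 to 8.68. After ethanol the oligodendrocyte mean was 8.86 to 8.95 in DBA/2J and 9.21 to 9.48 in C57BL6/J. Neurons under saline gave 11.88 to 11.92 against 11.94 to 11.96, and astrocytes 9.97 to 10.10 against 9.98 to 10.10. Cortical excitatory markers gave 9.25 to 9.46 against 9.41 to 9.74. All 3 of them were lower in saline DBA/2J (median -0.19), and 0 passed limma's adjusted threshold. Their part in the strain differences of Hspa1a, Hspa1b, Chordc1 and Dnajb1 was not tested.

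**Figure D3:**
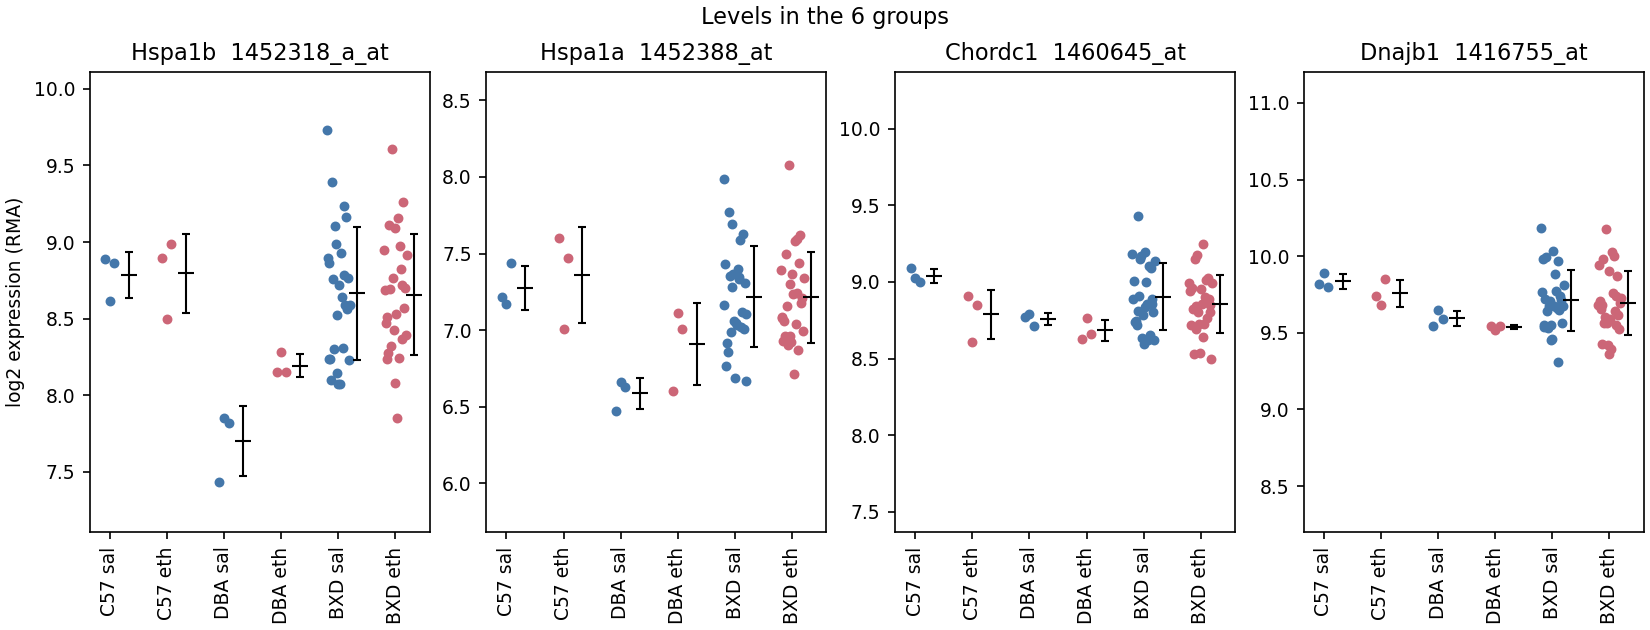
Log2 RMA expression (y axis) of the brightest probe sets of Hspa1b, Hspa1a, Chordc1 and Dnajb1 in the 6 groups (x axis), 1 point per array with the group mean and SD. Hspa1b has its lowest mean in saline DBA/2J, at 7.70, and equal means of 8.79 in both C57BL6/J groups.

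Within the saline BXD arrays Hspa1b spread well past the progenitor gap on its upper side. Its minimum was 8.07, its median 8.64 and its maximum 9.73. Of 27 strains, 20 lay on the C57BL6/J side of the midpoint of 8.24 between the saline progenitor means. None lay below the lowest progenitor array, and 8 lay above the highest. Hspa1a gave 22 strains on the C57BL6/J side, 5 above the highest progenitor array and 0 below the lowest. Hsph1 differed by -0.06 (interval -0.24 to 0.12) between the saline progenitors, and 7 BXD strains lay above and 13 below all of their arrays.

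Several members kept a strain's level from its saline to its ethanol array. Each BXD strain has a saline and an ethanol array. The intraclass correlation (ICC) is the share of total variance that lies between strains, with each treatment centred on its mean. On the brightest probe sets it was 0.67 for Hsph1, 0.60 for Hspa1b, 0.58 for Hspa1a and 0.56 for Chordc1. It was 0.36 for Hspb1, 0.30 for Dnajb1, 0.28 for Hsp90aa1 and 0.25 for Hspe1, beside a median of 0.18 over all genes. In limma's test of a strain effect 5 of 9 members passed, against 20.4% of all genes. The adjusted p was 2.15e-04 for Hspa1b, 5.57e-04 for Hspa1a, 0.0011 for Hsph1, 0.0026 for Chordc1 and 0.035 for Hspb1. Hspa8 had an ICC of 0.59 but did not pass (adjusted p = 0.19). Of 22 probe sets 8 passed, against 11.9% of all, among them the dim one of Hspa8 with an ICC of 0.60 and an adjusted p of 3.45e-04. With all probe sets in 1 fit by limma, the adjusted p of the strain effect was 0.057 for the brighter Hspb1 probe set. The dimmer Hspb1 probe set passed, with an ICC of 0.48 and an adjusted p of 0.0092. For Hsph1 the brighter probe set passed (adjusted p = 0.0025), and the dimmer one, with an ICC of 0.32, did not (adjusted p = 0.12). Genotype and whatever else the pools of a strain share cannot be told apart.

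Some strains leaned one way across the members and others were split. In BXD15 and BXD20 all 9 members were higher after ethanol, with median differences of 0.15 and 0.20. In BXD16 and BXD38 all 9 were lower, and the lowest median, -0.33, was in BXD31. Other strains were split, such as BXD36 with 5 members higher and 4 lower and BXD34 with 4 higher and 5 lower. Hspa1a and Hspa1b, which the probes may not tell apart, count as separate members here. The median of the 9 members was positive in 7 of 27 strains. Over strains these medians correlated at r = -0.38 with the difference in the first principal component of the arrays, and BXD20 had the lowest difference of that component. The component was taken from the probe sets with a single symbol that passed the filter on dim signals. The part of such array-wide differences in the strain profiles was not tested.

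The ethanol differences of several members rose and fell together from strain to strain. Over 27 strains 13 of 36 member pairs passed a permutation test of Pearson's r adjusted over the 36 pairs, 11 positive and 2 negative. The weakest of them had an r of 0.49 in size, which 36.1% of the member pairs and 9.46% of all pairs of tested genes reached. The closest pairs were the inducible Hsp70 genes with each other and Hspa1b with its Hsp40 partner. For Hspa1a with Hspa1b r was 0.89 and Spearman's rho 0.87 (p = 1e-05 each, the smallest the 100000 permutations can give, adjusted p = 3.6e-04 for r). For Hspa1b with Dnajb1 r was 0.73 and rho 0.59 (permutation p = 3e-05 and 0.0016, adjusted p = 5.4e-04 for r). These r were 0.83 and 0.62 without the 2 strains farthest from the median difference of the first-named member. Those strains were chosen anew for each pair. Because Hspa1a and Hspa1b probes may bind both copies, the first value describes likeness of probes as well as of genes. Relations of the 2 genes with other members may likewise count 1 signal more than once among the 13 pairs and in the 36.1%.

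Hspa1a with Dnajb1 gave r = 0.64 and rho 0.57 (permutation p = 4.1e-04 and 0.0021, adjusted p = 0.0030), and r = 0.46 without the 2 farthest strains. Hspa1b with Chordc1 gave r = 0.60 and rho 0.45 (permutation p = 8.2e-04 and 0.019, adjusted p = 0.0042), and r = 0.37 without its own 2. The adjusted permutation p of these 2 relations then became 0.070 and 0.16, so neither passed. Nor did Hspa1a with Chordc1 (0.12) or Hspa1b with Hsph1 (0.26). Dnajb1 with Chordc1 kept r = 0.63 without its 2 farthest strains, from 0.66 (rho 0.62). Hsp90aa1 with its chaperone partner Hsph1 gave r = 0.62 (rho 0.59), and 0.54 without its 2 farthest. Hspb1 went with Hspe1 at r = 0.67 (rho 0.68), and 0.67 without its 2 farthest. Both negative relations were with Hsp90aa1, at r = -0.60 (rho -0.61) for Hspb1 and -0.55 (rho -0.49) for Hspe1. Without the 2 strains farthest on Hspb1 and on Hsp90aa1 respectively they were -0.53 and -0.49, and the adjusted p of the second became 0.056. With each gene taken as the mean of its probe sets, Hsp90aa1 gave 0.36 with Hsph1 and -0.40 with Hspe1, and neither passed.

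**Figure D4:**
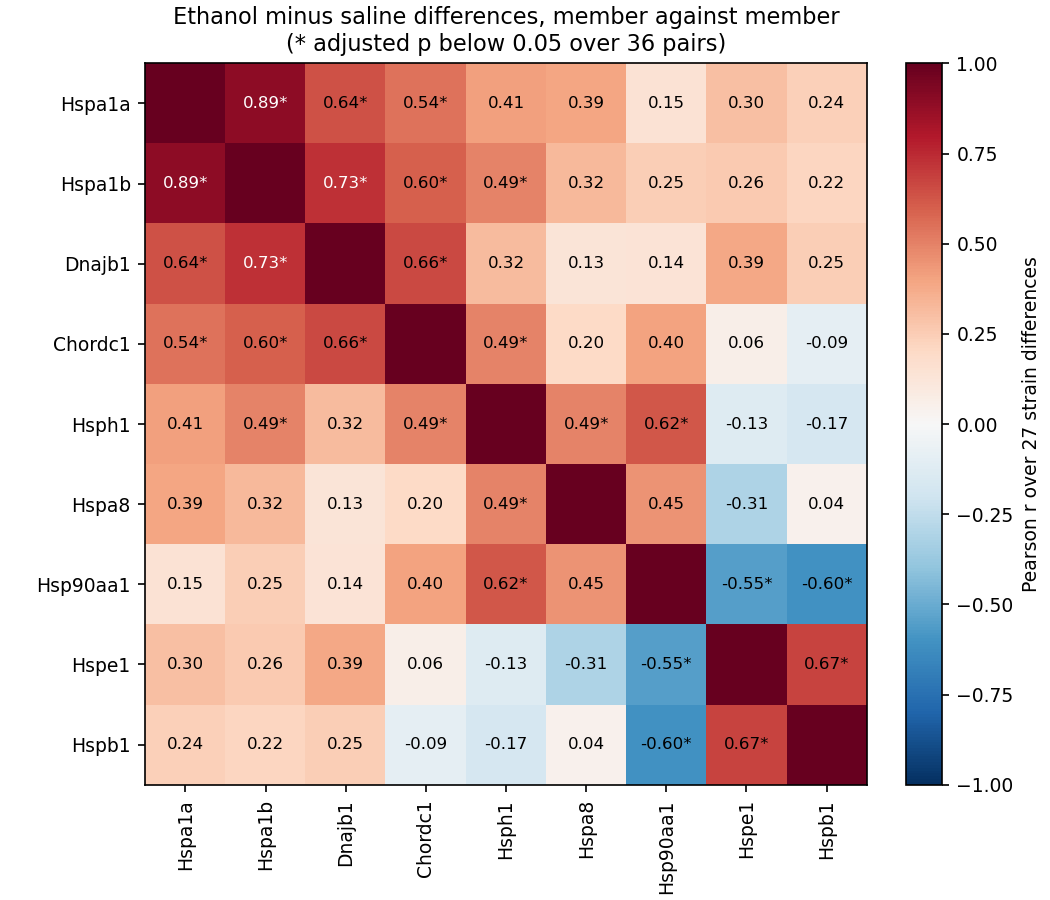
Pearson r over the 27 BXD strain differences (colour) for each pair of the 9 members (both axes), with a star where the permutation p adjusted over 36 pairs is below 0.05. Hspa1a and Hspa1b are the closest pair at 0.89, and Hsp90aa1 is negative with Hspb1 and Hspe1.

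**Figure D5:**
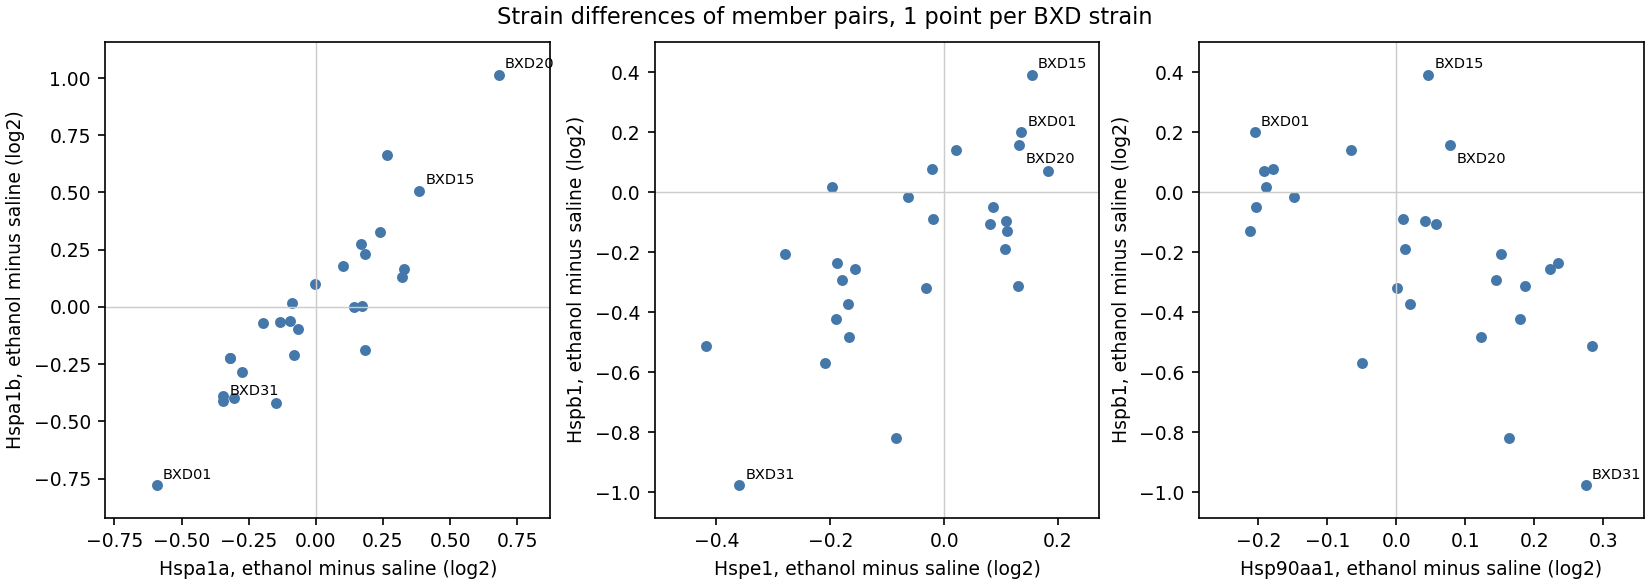
Ethanol minus saline difference in log2 of 1 member (x axis) against another (y axis), 1 point per BXD strain, for Hspa1a with Hspa1b, Hspe1 with Hspb1 and Hsp90aa1 with Hspb1. Hspa1a rises with Hspa1b (r = 0.89), where BXD20 and BXD01 lie at the upper and lower ends, and Hspb1 falls as Hsp90aa1 rises (r = -0.60).

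Genes in general also correlate on these arrays, and that breadth is the background. The middle 95% of r with all tested genes ran from -0.47 to 0.57 for Hspa1b, from -0.44 to 0.61 for Dnajb1, from -0.51 to 0.66 for Hspb1 and from -0.64 to 0.67 for Hsp90aa1. Of the 13 pairs past the threshold, 5 lay outside the spans of both members, namely Hspa1b with Hspa1a, Dnajb1 and Chordc1, and Dnajb1 with Hspa1a and Chordc1. All but Dnajb1 with Chordc1 involve Hspa1a or Hspa1b, whose probes may bind both copies, so these pairs may share 1 signal. Another 6 lay outside the span of 1 member and inside that of the other, among them the Hsp90aa1 relations with Hspb1, Hsph1 and Hspe1, all inside the span of Hsp90aa1. Hsph1 with Hspa1b and with Chordc1 lay inside both spans. Correlation with the strain differences of the first principal component of the arrays, whose sign is arbitrary, was -0.52 for Hsp90aa1, -0.49 for Hspa1b, 0.32 for Hspb1 and 0.05 for Hspe1. Its part in the member correlations was not tested beyond the values given under the processing alternatives. The strain difference of the dim Hspa8 probe set was most like those of Hspb1 among the members (r = 0.49, adjusted p = 0.054) and of Npas4 (r = 0.52, adjusted p = 0.052), and neither of these permutation tests passed after adjustment over 11 relations.

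Cirbp, a cold-inducible RNA-binding protein whose RNA falls as temperature rises, was set against the members as a partner gene. Its own ethanol difference was -0.01 (SE 0.05) over BXD strains. Over strains 1 of 9 members passed after adjustment over 9 pairs, and 6 of 9 r were negative. Chordc1 gave r = -0.54 and rho = -0.53 (adjusted permutation p = 0.032), and r = -0.38 without the 2 farthest strains. Hspa1b gave r = -0.46 with an adjusted permutation p of 0.076. Hspa1b lay just inside that span of all genes and Chordc1 outside it.

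Genes most like a member in level were ranked by Pearson r over the 54 BXD arrays, with each treatment centred on its mean, as a description of arrays that share strains and processing. For Hspa1b they were Hspa1a (0.88), Gfod1 (0.76), Chordc1 (0.75), Slc5a3 (0.73) and Dnajb1 (0.72). For Hsph1 they were Hspa8 (0.78), Slc5a3 (0.78), Xpo1 (0.77), Chordc1 (0.73) and Hnrnph1 (0.71). For Hspb1 they were Cdk2ap2 (0.75), Manf (0.74), Creld2 (0.71), Rce1 (0.69) and Anxa2 (0.66), of which Manf and Creld2 encode proteins of the endoplasmic reticulum stress response. The dim Hspa8 probe set, ranked likewise after its values had been seen, was most like Hspa1b (0.66), Clmp (0.64), Manf (0.63), Hspa5 (0.61) and Malat1 (0.60).

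Of 73 other genes of chaperone pathways (co-chaperones, small heat shock proteins, chaperonins and endoplasmic reticulum chaperones among them) 69 were measured. None passed limma's test of the BXD ethanol difference, and 3 had an unadjusted p below 0.05, against 4.93% of all genes. They were Fkbp5, a glucocorticoid-induced Hsp90 co-chaperone, at 0.16, the Hsp70-Hsp90 adaptor Stip1 at -0.06 and Grpel2 at -0.06. The median of the 69 was -0.02, like that of the members. By limma 0 passed in C57BL6/J, with 4 at an unadjusted p below 0.05, against 4.98% of all genes. The smallest p were those of Fkbp5 (0.37), Creld2 (-0.33) and Hspa13 (-0.28). In DBA/2J 0 passed, with 7 at an unadjusted p below 0.05, against 12.5% of all genes. The smallest p there were those of Dnajb5 (0.48), Fkbp5 (0.28) and Hspa12a (-0.30). Between the saline progenitors 5 of 69 were lower in DBA/2J by limma, against 6.27% of all genes. They were the small heat shock proteins Hspb6 (-0.76) and Hspb8 (-0.46), the Hsp40 protein Dnajb5 (-0.45), the chaperonin subunit Cct4 (-0.36) and Manf (-0.24). Higher in DBA/2J were Hspa13, an Hsp70 relative, at 2.03 and the endoplasmic reticulum chaperone Hyou1 at 0.33. After ethanol Hspa13 was higher, at 2.21, and Hspb8 (-0.82) and Hspb6 (-0.72) were lower, 2 of 69 against 2.89% of all genes. Across BXD strains 20 of 69 passed limma's test of a strain effect, against 20.4% of all genes. By list they were 5 of 6 small heat shock proteins, 8 of 14 endoplasmic reticulum chaperones, 3 of 7 Hsp70 and Hsp110 relatives, 2 of 9 J-domain co-chaperones and 2 of 9 Hsp70 adaptors and exchange factors. None of the 8 Hsp90 co-chaperones, 8 cytosolic chaperonin subunits, 6 mitochondrial chaperones or 2 heat shock factors and regulators passed, and 1 of these, a chaperonin subunit, had an unadjusted p below 0.05. The highest ICC were 0.98 for Hspa13, 0.86 for Hspb8, 0.85 for Hspb6, 0.81 for Bag2, 0.74 for Stip1, 0.63 for Hspa5, 0.61 for Hyou1 and 0.58 for Dnajb5.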

How the data were processed

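Medial prefrontal cortex RNA was measured on 66 arrays. The authors deposited log2 expression values made with RMA in the affy package, per the submitters' processing notes; no version or setting is stated in the labels or file headers. RMA normalizes arrays to a common distribution, which hides shifts shared by most genes. Groups follow the labels. Probe sets were named from the platform annotation with symbols updated by gene ID; 34945 have 1 symbol, 932 several and 9160 none, and those with several were not named. Each gene was represented by its brightest probe set with a mean at or above the 40th percentile (log2 5.10), giving 13196 genes. limma 3.58.1 in R 4.3.3 was fitted per gene, and again to all 45037 probe sets unfiltered for the members. The BXD fit had strain as a block (26 residual degrees of freedom) and the 12 progenitor arrays were fitted together (8). P-values were adjusted by Benjamini-Hochberg over all features, with a threshold of 0.05. The labels of the arrays do not give the randomised processing batches, so no batch was fitted.

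Correlations over strain differences used 100000 permutations (numpy 2.4.6, scipy 1.17.1). Scripts were tested on simulated data. All members are named. Of the pathway lists, genes past the threshold are named, up to 8 by size, or the 3 with the smallest p where none passes. The 5 genes most like Hsph1, Hspa1b and Hspb1 are named. The members, gene lists and cell type marker lists were chosen with earlier results of these data known. Alternatives tried are another filter, probe set summaries, normalizations, priors, weights, sample sets, blocks and leaving out arrays or strains. Those on single probe sets, on the first principal component and on Cirbp were chosen after seeing the data.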

Additional observations from a re-analysis of the deposited data

How the results depend on the processing

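Over the single values given for members and pairs, 456 alternative values, other than those that leave out 1 array or strain, kept direction and side of the threshold, 26 lost the call, 4 gained it and 2 reversed. Hspa8 over BXD strains turned from -0.02 to 0.18 when its probe sets were averaged (adjusted p = 0.0035 by limma), and the count of members called became 1; that average includes the dim Hspa8 probe set. Hspa1b in C57BL6/J turned from 0.01 to -0.015 when arrays were centred on their medians. Leaving out 1 array or strain spanned 0 for BXD Hspa1a (-0.032 to 0.017), Hspa1b (-0.047 to 0.022) and Dnajb1 (-0.035 to 0.0035), and for C57BL6/J Hspa1a (-0.037 to 0.26) and Hspa1b (-0.090 to 0.16). Members lower in saline DBA/2J went from 4 to 2 with no filter, with all probe sets fitted separately, with repeated quantile normalization, with the replicate block and with the 66 arrays fitted together, and to 2 without any of the 6 arrays. Chordc1 and Dnajb1 were those lost. Under ethanol the count went from 1 to 2 with array weights (Hspa1a adjusted p = 0.025), and from 0 to 2 over the left-out arrays, and that of probe sets from 4 to between 0 and 4. Member pairs past the threshold went from 13 to 11 with probe sets averaged, and 8 of those were among the 13. They went to 15 with the first principal component taken out and to 8 without the 2 farthest strains. Members related to Cirbp went from 1 to 0 under median centring and to 0 with the component taken out. Saline or ethanol arrays alone relate levels over strains and not ethanol differences, which is another quantity. By levels 21 pairs passed with saline arrays alone and 22 with ethanol arrays alone. Members related to Cirbp by levels were 5 with saline arrays alone and 5 with ethanol arrays alone. The cause of these changes was not tested. The labels do not say whether replicate numbers pair the progenitor arrays. Deviations of same-numbered arrays from their group means correlated at 0.08, -0.13 and -0.23 in C57BL6/J and 0.26, 0.12 and 0.06 in DBA/2J. These few values depend on each other within a strain, so they cannot show or exclude pairing. The replicate block, beside the change above, ended the call of the dimmest Hspa1b probe set between ethanol groups (adjusted p = 0.066 by limma). It moved no other count of calls by over 1.5 times. The alternatives for Rbm3 and for the likeness of Hsp90ab1 were not run.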
